A study of Gallus gallus with 12 samples.

Results

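The chorioallantoic membrane (CAM) of the chick embryo was compared between embryonic day 14 (E14) and embryonic day 10 (E10) on 6 of the 12 arrays of a developmental series. The 6 arrays were taken by stage alone, 3 from E14 and 3 from E10, and every probe set of the array was considered. The other 6 arrays hold 3 CAMs each of E5 and E7 and stay out of the main fit. They serve to place the levels in time, in the choice of the probe sets tested and in some alternative fits. At E5 the tissue was, by the paper, the allantoic vesicle, which it also calls CAM, so that its make-up may differ from that of later stages. Each array carried the RNA of 1 whole CAM from 1 embryo of normal development with no treatment, and no genotype, breed or sex was given in the labels. The membrane was excised, snap-frozen and extracted whole, so that chorionic epithelium, mesoderm with its vessels, allantoic epithelium and the blood within the vessels were read together.

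The CAM forms when the outer wall of the allantois fuses with the chorion. Its chorionic epithelium lies under the shell membrane and, with the capillary layer, carries out gas exchange, takes up calcium from the shell and secretes acid to dissolve it, while its allantoic epithelium lines the sac that holds urinary waste. The membrane is also an outer barrier of an embryo whose adaptive immune system is not yet mature, and egg and membrane rely largely on secreted antimicrobial proteins such as lysozymes, avidin, defensins and cathelicidins.

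Of 38439 probe sets apart from controls, 17726 were tested, those whose lowest signal within a stage reached 35 at 1 or more of the 4 stages. Signals are the authors' scaled array intensities, changes are log2 fold changes of E14 over E10 ± their standard error (SE), and "rose" and "fell" stand for limma's adjusted p under 0.05 together with a fold over 2. At E14 241 probe sets were higher (1.36% of those tested) and 169 were lower (0.953%), 410 (2.31%) in all, against a median log2 fold change of -0.05 over all probe sets tested. The median SE was 0.29, and 3908 probe sets had an unadjusted p under 0.05. The paper, with another test and a filter on detection calls, reports more transcripts down than up from E10 to E14, the opposite balance. The balance of directions also depended on the fit here. With each array's median over all probe sets equalized, which moved the median log2 fold change by -0.24, 198 were higher and 623 lower. With all 12 arrays in the fit 216 were higher and 263 lower.

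The number of calls rested on single arrays. When 1 E14 array was left out, 96 were higher and 53 lower for replicate 3, 303 and 335 for replicate 2 and 186 and 162 for replicate 1. When 1 E10 array was left out, 110 were higher and 31 lower for replicate 1, 83 and 25 for replicate 2 and 184 and 87 for replicate 3. The 3' to 5' signal ratio of the actin control, which rises as RNA degrades, was 3.43, 2.21 and 2.86 at E14, against 1.58, 1.66 and 1.51 at E10. That of GAPDH was 1.19 to 1.30 at E14 and 1.01 to 1.10 at E10. The W-linked transcript HINTW read 2.59 in E14 replicate 2, against 3830 to 5386 in the other 5 arrays, so that embryos of both sexes stood at E14 but not at E10. The part of RNA quality and of sex in the results below was not tested beyond a fit of all 12 arrays with HINTW as a covariate, which called 155 higher and 181 lower.

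Genes are described below by lists, with 1 probe set per gene, the brightest. Over the 9013 genes so counted, 159 rose (1.76%) and 92 fell (1.02%), with a median log2 fold change of -0.03. Fold changes were positive in 4296 of them and negative in 4717. The lists were chosen with earlier results of these data known, so that list shares set beside these are not independent evidence of a shift. A gene whose signals reached 35 at E14 only was kept because it was high there and was likely to differ. Such probe sets made up 84 of the 241 higher ones, and 12 of the 169 lower ones reached 35 at E10 only. Whenever more RNA of a group was found, more cells of a type and more RNA per cell cannot be told apart in a whole membrane.

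**Figure D1:**
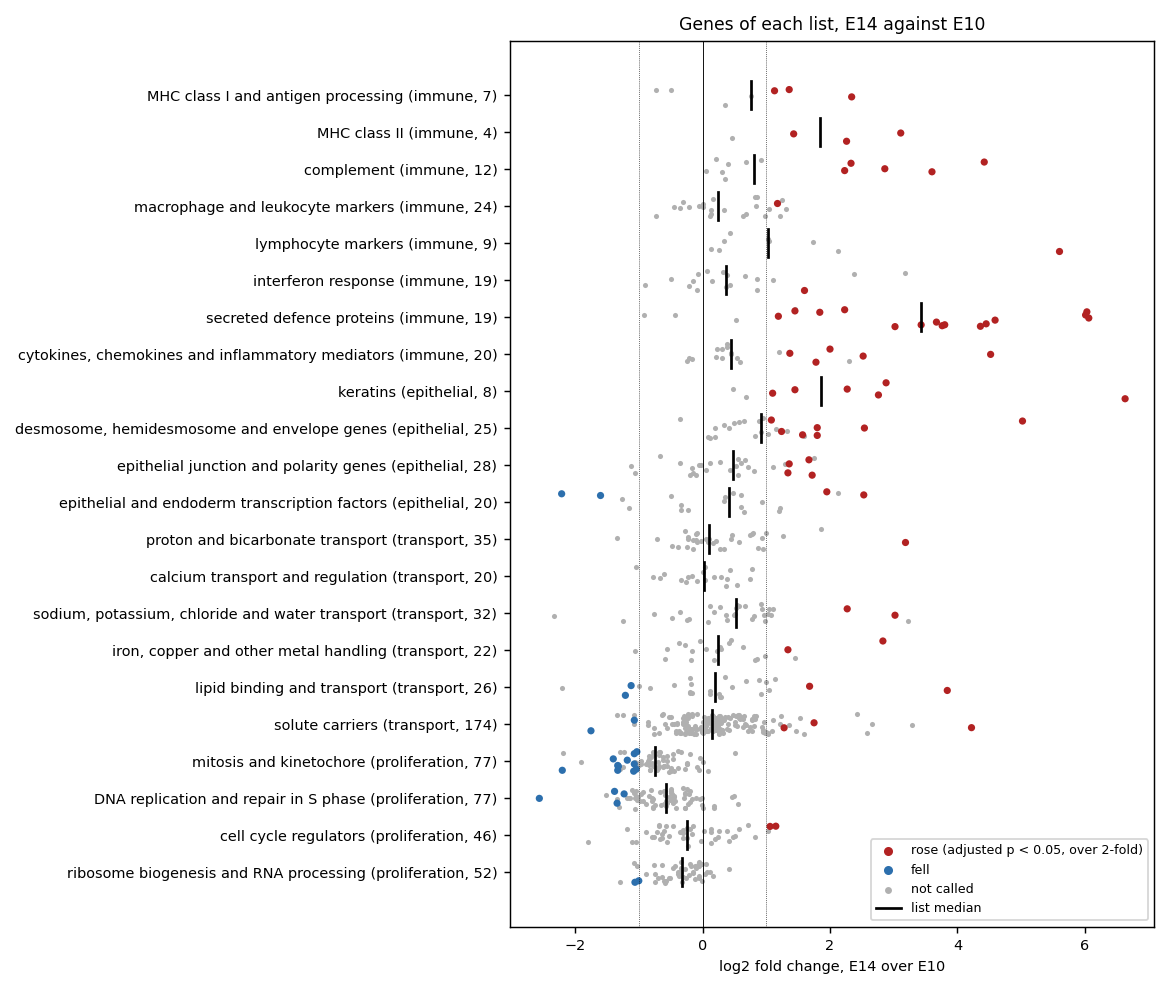
Log2 fold change of E14 over E10 (horizontal axis) for every tested gene of the 22 lists of immune, epithelial, transport and proliferation genes, 1 point per gene by its brightest probe set, with the number tested in brackets. Red points rose, blue points fell, grey points were not called, black bars are list medians and dotted lines mark a fold of 2. The median of the secreted defence proteins lies at 3.43 and that of the mitosis genes at -0.74.

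The immune shift was led by genes listed here as secreted proteins of innate defence. Of 45 such genes, 8 had no probe set and 18 lay below the signal limit. Of the 19 tested 15 rose (78.9%, beside 1.76% of all genes) and 0 fell, with a median log2 fold change of 3.43. Of those 15, 7 reached the signal limit at E14 only. AVD, the biotin-binding protein avidin of egg white, read 6041, 7032 and 3649.8 at E14, against 212, 29.6 and 91.8 at E10 (log2 fold change 6.01 ± 0.59, adjusted p = 0.00151). All 3 E14 arrays lay far above all 3 E10 arrays, and they lay above them by any margin in 2476 of all 17726 probe sets tested. Its levels at the earlier stages were 21.4 to 45.6 at E5 and 14.2 to 82.3 at E7, so that the high level stood at E14 alone.

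CATH1, a cathelicidin whose product is an antimicrobial peptide, read 1856, 525 and 1793 at E14, against 41.7, 2.1 and 67.1 at E10 (log2 fold change 6.06 ± 1.11, adjusted p = 0.0257). LYZ, the lysozyme of egg white, read 316, 202 and 742 at E14, against 27.9, 0.895 and 6.86 at E10 (log2 fold change 6.03 ± 1.05, adjusted p = 0.0213). LYG2, a goose-type lysozyme, read 116, 130.1 and 335 at E14, against 3.85, 4.14 and 22.8 at E10 (log2 fold change 4.59 ± 0.72, adjusted p = 0.0138). All 3 were near background at E10, and under a floor of 20 on the signals their log2 fold changes were 4.98, 4.02 and 3.04. The call of CATH1 was lost without E14 replicate 1 or 3 or E10 replicate 1 (adjusted p up to 0.083), that of LYZ without E14 replicate 3 or E10 replicate 3 (up to 0.0801) and that of LYG2 without E14 replicate 3 or E10 replicate 2 (up to 0.0738).

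The avian β-defensins are small cationic peptides stored in heterophil granules and made by some epithelia. AvBD7 read 608, 103 and 969.8 at E14, against 17.4, 19.5 and 20.6 at E10 (log2 fold change 4.36 ± 0.68, adjusted p = 0.0138), with the lowest E14 value in replicate 2, and its call was lost without E10 replicate 1 or 2 (adjusted p up to 0.0757). AvBD1 (log2 fold change 3.80 ± 0.46, adjusted p = 0.00494) and DEFB4A, the RefSeq symbol for the gene listed as AvBD2 (log2 fold change 3.67 ± 0.33, adjusted p = 0.00119), rose as well, as did AvBD6 (log2 fold change 3.02, adjusted p = 0.0424, and lost in 5 of the 6 omissions of 1 array). The other 8 defensins listed lay below the signal limit. AvBD1, DEFB4A and AvBD6 were singled out after their values were seen.

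Also on this list, S100A12, the RefSeq symbol for the calgranulin listed as S100A9, averaged 2299 ± 968 at E14 and 164 ± 61.1 at E10 (SD, n = 3 each; log2 fold change 3.76 ± 0.37, adjusted p = 0.00151). LECT2, a leukocyte chemotactic factor, read 190.1, 94.9 and 267 at E14, against 12.2, 2.54 and 14.9 at E10 (log2 fold change 4.45 ± 0.68, adjusted p = 0.0132), and was lost without E14 replicate 3 (adjusted p = 0.0654). The remaining 5 that rose, named after their values were seen, were NEU2, CLEC3B, EXFABP, WFDC2 and AGR2, at log2 fold changes of 3.43, 2.23, 1.84, 1.45 and 1.19. The list was drawn broadly, and whether each of these 5 is secreted or acts in defence in this membrane was not tested. WFDC2 was lost in 5 omissions (adjusted p up to 0.124) and its second probe set was not called (0.74, adjusted p = 0.267), AGR2 was lost in 4 (up to 0.121) and CLEC3B in 2 (up to 0.0641). EXFABP, a lipocalin that binds bacterial siderophores, averaged 6755 ± 1589 at E14 and 1896 ± 518 at E10 (SD, n = 3 each). The 4 tested that were not called were TF, LBP, SPINK5 and COLEC12, and TF, the iron-binding transferrin, passed in 1 of its 2 other probe sets.

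Antigen presentation genes rose in their best known members. Of 4 tested MHC class II genes 3 rose (75.0%, beside 1.76% of all genes). BLB1, a class II β chain, read 1178, 1191 and 1502 at E14, against 129.6, 144 and 176 at E10 (log2 fold change 3.11 ± 0.20, adjusted p = 0.000192). CD74, the invariant chain that guides class II molecules, read 932, 1770.3 and 1675 at E14, against 220.2, 356 and 318 at E10 (log2 fold change 2.26 ± 0.29, adjusted p = 0.00519), and CTSS, the protease that trims that chain, read 661, 654 and 701 at E14, against 239.9, 271 and 236 at E10 (log2 fold change 1.43 ± 0.18, adjusted p = 0.00494). In these genes all E14 values lay above all E10 values, as in 2476 of all 17726 probe sets tested. The 3 calls held in each of the 6 omissions of 1 array.

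Of 7 tested genes of MHC class I and antigen processing 3 rose (42.9%, beside 1.76% of all genes). The class I heavy chain BF2 read 332, 220.5 and 281 at E14, against 51.8, 51.1 and 59.9 at E10 (log2 fold change 2.34 ± 0.24, adjusted p = 0.00209). B2M, its light chain, read 2588, 2578 and 2132 at E14, against 968, 892 and 978 at E10 (log2 fold change 1.36 ± 0.16, adjusted p = 0.00425). TAPBP, which loads peptides onto class I, rose less (log2 fold change 1.13 ± 0.22, adjusted p = 0.0333) and was lost in 4 omissions (adjusted p up to 0.124). The chaperones CALR and PDIA3, which the same list holds and which fold many other proteins, had log2 fold changes of -0.50 and -0.73 and were not called. The B locus genes are close relatives of one another, so that a probe set may read more than 1 of them.

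The complement list had 12 tested genes, 5 of which rose (41.7%, beside 1.76% of all genes). All 12 had positive fold changes, beside 4296 of all 9013 genes. The 3 chains of C1q, the recognition molecule of the classical pathway that macrophages make, rose together. C1QB read 624, 362 and 740.1 at E14, against 61.6, 41.4 and 36.5 at E10 (log2 fold change 3.60 ± 0.32, adjusted p = 0.00108), C1QA read 238, 195 and 459 at E14, against 58.1, 37.5 and 25.6 at E10 (log2 fold change 2.86 ± 0.39, adjusted p = 0.00827) and C1QC read 193, 192 and 307 at E14, against 40.2, 57.3 and 48.0 at E10 (log2 fold change 2.23 ± 0.28, adjusted p = 0.00504). Calls of C1QB and C1QC held in all 6 omissions, and C1QA had an adjusted p = 0.0514 without E10 replicate 2. C3, the central component of the cascade, read 248, 153 and 119 at E14, against 20.2, 14.4 and 1.57 at E10 (log2 fold change 4.42 ± 0.85, adjusted p = 0.0312; 3.04 under the floor of 20). It was lost without E14 replicate 1 or 3 or E10 replicate 2 (adjusted p up to 0.0824). The protease CFD of the alternative pathway rose (log2 fold change 2.33 ± 0.44, adjusted p = 0.0287), but its call held only without E14 replicate 2.

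Most markers of the leukocytes themselves gave smaller differences. Exceptions among the markers fixed for each cell type were C1QB for macrophages and S100A12 for granulocytes, both described above. They rose at log2 fold changes of 3.60 and 3.76. Of 24 tested macrophage and leukocyte markers 1 rose (4.17%, beside 1.76% of all genes). It was the nucleotide receptor P2RY6 (log2 fold change 1.17 ± 0.21, adjusted p = 0.0233), and its call was lost in 4 omissions (adjusted p up to 0.108). Fold changes were positive in 17 of the 24 and negative in 7. At an unadjusted p under 0.05, 8 were higher and 1 lower, beside 3908 of all 17726 probe sets tested in either direction. The summed signal of that list was 9558 to 10278 at E14 and 8428 to 8664 at E10. ITGB2, a leukocyte integrin chain taken up after its values were seen, read 77.7, 82.3 and 118.2 at E14, against 40.4, 37.7 and 32.8 at E10. It did not pass (log2 fold change 1.31 ± 0.30, adjusted p = 0.0519), but passed under a floor of 20 on the signals (adjusted p = 0.0446). The macrophage receptor CSF1R read 194, 317 and 329.7 at E14, against 109.5, 169 and 143 at E10 (log2 fold change 0.98 ± 0.28, adjusted p = 0.088). LCP1, an actin-bundling protein of leukocytes, averaged 346 ± 53.5 at E14 and 197 ± 35.2 at E10 (SD, n = 3 each; adjusted p = 0.0816), and the myeloid factor SPI1 87.6 ± 33.8 at E14 and 55.1 ± 15.9 at E10 (adjusted p = 0.351). PTPRC, the pan-leukocyte CD45, and the scavenger receptor MARCO lay below the signal limit, with PTPRC at 26.9, 44.9 and 66.4 at E14, against 48.0, 31.4 and 24.8 at E10 and MARCO at 32.6, 52.5 and 38.6 at E14, against 47.5, 20.2 and 34.4 at E10, so that the groups overlapped in both. The granulocyte receptor CSF3R was also below the limit, at 6.39, 7.28 and 15.7 at E14, against 2.52, 6.41 and 3.02 at E10. The part that a larger share of leukocytes had in the C1q and MHC results was not tested.

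Among lymphocyte markers 9 were tested and 1 rose (11.1%, beside 1.76% of all genes). The summed signal of these 9 was 709 to 911 at E14 and 371 to 506 at E10. CD3D, a chain of the T cell receptor complex, read 57.2, 79.7 and 95.2 at E14, against 1.55, 2.37 and 1.04 at E10 (log2 fold change 5.60 ± 0.83, adjusted p = 0.0115). All 3 E10 values were near background, and under a floor of 20 on the signals the log2 fold change was 1.92. Its call was lost without E14 replicate 1 (adjusted p = 0.0559) or E14 replicate 3 (adjusted p = 0.0911). CD3E, its partner, read 66.2, 79.6 and 51.0 at E14, against 11.8, 36.9 and 7.57 at E10 (log2 fold change 2.12 ± 0.59, adjusted p = 0.0839), and CD4 78.2, 89.8 and 54.3 at E14, against 27.9, 29.8 and 53.9 at E10 (log2 fold change 1.03 ± 0.37, adjusted p = 0.151). Neither passed. In both, all 3 E14 values lay above all 3 E10 values, as in 2476 of all 17726 probe sets tested. For CD4 the groups were parted only by 54.3 at E14 against 53.9 at E10. CD8A, the co-receptor of cytotoxic T cells, and the B cell genes CD79B and PAX5 lay below the limit. Of the 9 tested, 6 reached the limit at E14 only.

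Of 20 tested cytokines, chemokines and inflammatory mediators 5 rose. IL8L2, a chemokine that draws heterophils, read 209, 624 and 303 at E14, against 28.1, 2.67 and 44.0 at E10 (log2 fold change 4.52 ± 0.90, adjusted p = 0.0361), and was lost without any 1 of the E14 arrays or E10 replicate 1 (adjusted p up to 0.092). Both cyclooxygenases rose, PTGS2, the inducible one (366, 514 and 762 at E14, against 144, 116 and 45.8 at E10; log2 fold change 2.52 ± 0.43, adjusted p = 0.0198), and PTGS1, the constitutive one (155, 508 and 222 at E14, against 68.6, 47.4 and 84.2 at E10; log2 fold change 2.00 ± 0.42, adjusted p = 0.0424). The decoy receptor TNFRSF6B (1.78, adjusted p = 0.0437) and ANXA1, an anti-inflammatory annexin (1.37, adjusted p = 0.0182), completed the group. These 4 calls were lost in 2 to 4 omissions, at adjusted p up to 0.149, and without E14 replicate 3 0 of the 5 remained. The interferon response list had 1 of 19 tested genes that rose (5.26%, beside 1.76% of all genes). This was the transcription factor IRF1 (log2 fold change 1.60 ± 0.35, adjusted p = 0.047), which held only without E10 replicate 3 (adjusted p up to 0.153 in the other omissions).

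In all, 34 of 114 tested immune genes rose (29.8%, beside 1.76% of all genes) and 0 fell, where 4 had an unadjusted p under 0.05 in the lower direction. Their median log2 fold change was 0.68. Without E14 replicate 3 15 rose, without E10 replicate 2 21, and without any other array 23 to 34. After quantile normalization 32 rose and with medians equalized 30. Of the 34, 12 reached the signal limit at E14 only, as did 22 of the 114 tested, beside 978 of all 17726 probe sets tested. Genes kept in that way raise the share and the median.

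**Figure D2:**
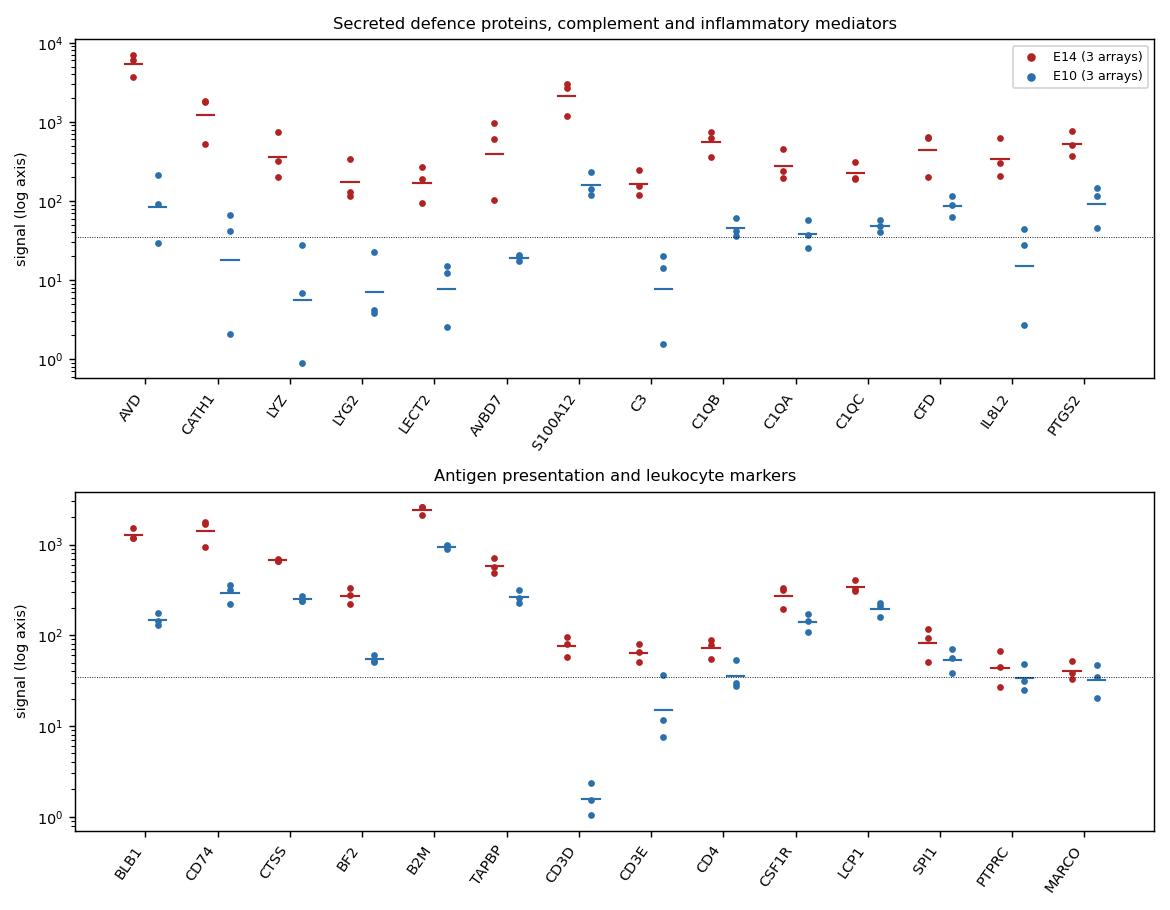
Signal (log axis) of 28 immune genes in each of the 3 E14 arrays (red, left of each pair) and 3 E10 arrays (blue), with bars at the geometric means and a dotted line at the signal limit of 35. The defence, complement and MHC genes separate between the stages, whereas MARCO and PTPRC overlap.

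The epithelial rises were mostly of keratins and of genes of desmosomes, hemidesmosomes and the cell envelope. Of 8 tested keratins, the intermediate filaments of epithelial cells, 6 rose (75.0%, beside 1.76% of all genes) and 0 fell, at a median log2 fold change of 1.86. KRT13 read 3137, 4208 and 4745 at E14, against 641, 526 and 602 at E10 (log2 fold change 2.76 ± 0.19, adjusted p = 0.000251) and KRT75 420.1, 183 and 189.9 at E14, against 34.4, 30.3 and 35.1 at E10 (log2 fold change 2.88 ± 0.34, adjusted p = 0.00457). KRT6A, a keratin of activated epidermis in mammals, read 205, 703 and 118 at E14, against 2.67, 2.2 and 2.97 at E10 (log2 fold change 6.63 ± 0.65, adjusted p = 0.00151), and under a floor of 20 on the signals its log2 fold change was 3.69. The calls of KRT13, KRT75 and KRT6A held in all 6 omissions. Keratins are a large family of similar sequences, and a probe set may read more than 1 member.

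KRT14, the keratin of basal cells in stratified epithelia, was already bright at E10 and read 5267, 4574 and 5363 at E14, against 2506, 2222 and 1130.5 at E10 (log2 fold change 1.45 ± 0.27, adjusted p = 0.0284), a call lost without E14 replicate 1 or 3 or E10 replicate 2 (adjusted p up to 0.0887). Over the 4 stages its mean signal was 255 at E5, 545 at E7, 1953 at E10 and 5068 at E14. KRT80 (log2 fold change 2.27 ± 0.36, adjusted p = 0.0138) and KRT23 (log2 fold change 1.10 ± 0.22, adjusted p = 0.0359) rose less securely, KRT80 being lost in 2 omissions and KRT23 in all 6 (adjusted p up to 0.131). KRT71, found outside the list among the largest rises, read 365, 307 and 209.7 at E14, against 13.2, 9.83 and 10.7 at E10 (log2 fold change 4.68 ± 0.32, adjusted p = 0.00023), through a probe set that its name marks as open to cross-hybridization. KRT5, the usual partner of KRT14, stayed below the signal limit at 5.38, 35.7 and 50.6 at E14, against 20.3, 19.1 and 9.68 at E10.

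Desmosomes join epithelial cells, hemidesmosomes fasten them to the basement membrane, and envelope proteins harden the cells of the surface. Of 25 tested genes of these structures 7 rose and 0 fell, and 24 of the 25 had positive fold changes, with a median of 0.92. COL17A1, a transmembrane collagen of hemidesmosomes, read 349, 742 and 789 at E14, against 100.3, 97.1 and 107 at E10 (log2 fold change 2.54 ± 0.31, adjusted p = 0.00494). LAMA3, the laminin chain to which hemidesmosomes bind, rose (log2 fold change 1.80 ± 0.35, adjusted p = 0.0337) but was lost in 4 omissions (adjusted p up to 0.128). The envelope precursors EVPL (1786, 1923 and 1238 at E14, against 548, 500.0 and 598 at E10; log2 fold change 1.57 ± 0.20, adjusted p = 0.00631) and PPL (768, 1064 and 971 at E14, against 421, 341 and 418 at E10; log2 fold change 1.24 ± 0.20, adjusted p = 0.0142) rose together. EVPL held in all 6 omissions, although its 2 dimmer probe sets did not pass (log2 fold changes 0.82 and 0.84), whereas PPL was lost without E14 replicate 3 or E10 replicate 1 or 2 (adjusted p up to 0.0752).

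TGM4, a transglutaminase, read 316, 258 and 564 at E14, against 12.4, 4.76 and 22.7 at E10 (log2 fold change 5.02 ± 0.54, adjusted p = 0.00289; 4.10 under the floor of 20). POF1B, an actin-binding protein of epithelial junctions, averaged 978 ± 286 at E14 and 277 ± 50.6 at E10 (SD, n = 3 each; log2 fold change 1.80 ± 0.24, adjusted p = 0.00783). Both calls held in all 6 omissions, and the 7th gene of the list that rose was TUFT1 (log2 fold change 1.08). Desmoplakin, the core plaque protein DSP, had a log2 fold change of 1.15 with an adjusted p = 0.13 and was not called.

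Of 28 tested genes of epithelial junctions and polarity 4 rose (14.3%, beside 1.76% of all genes). CLDN3, a sealing claudin of tight junctions, read 1671, 1511 and 2108 at E14, against 709, 556 and 833 at E10 (log2 fold change 1.34 ± 0.21, adjusted p = 0.0132). LMO7, which links adherens junctions to actin (log2 fold change 1.36 ± 0.22, adjusted p = 0.0168), EPS8L2, an actin regulator (log2 fold change 1.67 ± 0.28, adjusted p = 0.0168), and the tetraspanin TSPAN1 (log2 fold change 1.72 ± 0.27, adjusted p = 0.0142) also rose. All 4 calls were lost without E14 replicate 3 or E10 replicate 2, at adjusted p up to 0.0793. The general epithelial adhesion genes changed less. EPCAM read 6709, 6269 and 6681 at E14, against 3698, 3659 and 3834 at E10 (log2 fold change 0.81 ± 0.13, adjusted p = 0.0142), a difference under 2-fold that passed on p alone, and CDH1, E-cadherin, read 1954, 2263 and 2604 at E14, against 1662, 1581 and 1792 at E10 (log2 fold change 0.43 ± 0.16, adjusted p = 0.168).

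Transcription factors of epithelium and endoderm divided, with 2 of 20 tested that rose and 2 that fell. ELF3, an epithelium-specific ETS factor, read 719.6, 419 and 600.0 at E14, against 173, 128 and 143 at E10 (log2 fold change 1.95 ± 0.25, adjusted p = 0.00542). HOPX, an atypical homeodomain protein, read 275, 205 and 205 at E14, against 58.2, 47.8 and 21.4 at E10 (log2 fold change 2.53 ± 0.37, adjusted p = 0.0115). GRHL3, which drives barrier formation in mammalian epidermis, read 56.1, 62.9 and 60 at E14, against 288, 276 and 261 at E10 (log2 fold change -2.21 ± 0.21, adjusted p = 0.00142), lower in every E14 array than in any other of the 12 arrays, the E5 and E7 ranges being 126 to 184 and 110.4 to 249. GATA5, a factor of endoderm and heart, fell (log2 fold change -1.60 ± 0.25, adjusted p = 0.0132), and its mean signal was 2310.2 at E5, 1890.2 at E7, 780.1 at E10 and 266 at E14. TP63, the master regulator of stratified epithelia, averaged 328 ± 95.1 at E14 and 140.1 ± 29.2 at E10 (SD, n = 3 each; log2 fold change 1.2 ± 0.28, adjusted p = 0.0537) and did not pass. Calls of ELF3, HOPX and GRHL3 held in all 6 omissions, and GATA5 was lost without E10 replicate 1 or 2 (adjusted p up to 0.0716).

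Taking the 4 lists as 1, 19 of 81 tested epithelial genes rose (23.5%) and 2 fell (2.47%), beside 1.76% and 1.02% of all genes. Their median log2 fold change was 0.61. Without E14 replicate 3 or E10 replicate 2 9 rose, and without any other array 13 to 21. Of the 19, 4 reached the signal limit at E14 only, as did 7 of the 81 tested.

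Transport genes shifted less as a group. Of 291 tested, 10 rose (3.44%) and 4 fell (1.37%), beside 1.76% and 1.02% of all genes, and their median log2 fold change was 0.18. The rises included CA2, the carbonic anhydrase that supplies protons and bicarbonate and that is also abundant in red cells. It read 5083, 4465 and 3809.9 at E14, against 249.6, 270.2 and 1750.4 at E10 (log2 fold change 3.17 ± 0.62, adjusted p = 0.0334). E10 replicate 3 lay well above the other two, and the call was lost without E14 replicate 1 or 3 or E10 replicate 1 or 2 (adjusted p up to 0.128). The mean over the stages was 103 at E5, 651 at E7, 757 at E10 and 4453 at E14.

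CA2 was the only call among 35 tested genes of proton and bicarbonate transport, of which 2.86% thus rose, beside 1.76% of all genes. SLC4A1, the anion exchanger of red cells and of acid-secreting cells, read 2811, 2736 and 2410.3 at E14, against 1419, 1098 and 1656 at E10 (log2 fold change 0.95 ± 0.18, adjusted p = 0.0333), just under 2-fold. FOXI1, the factor that specifies proton-secreting cells, read 59.0, 109 and 159 at E14, against 129.6, 161 and 141 at E10 (log2 fold change -0.50 ± 0.35, adjusted p = 0.416), and the proton pump subunit ATP6V0D2 178, 231 and 194 at E14, against 110.2, 256 and 140.4 at E10 (log2 fold change 0.34 ± 0.31, adjusted p = 0.552). In both the groups overlapped. Of 20 tested genes of calcium transport and regulation limma called 0 in either direction, also with all 12 arrays, and 2 were higher and 2 lower at an unadjusted p under 0.05. Their fold changes ran between -1.05 and 0.78 on the log2 scale, with a median of 0.02.

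Of 32 tested genes of sodium, potassium, chloride and water transport 2 rose (6.25%, beside 1.76% of all genes). ANO1, a calcium-activated chloride channel of secretory epithelia, read 356, 460.5 and 365 at E14, against 50.6, 23.3 and 94.1 at E10 (log2 fold change 3.02 ± 0.44, adjusted p = 0.0105), and a second probe set of it gave 355, 248 and 388 at E14, against 17.8, 2.14 and 38.8 at E10 (log2 fold change 4.83, adjusted p = 0.024). LHFPL5, a membrane protein known from hair cells, rose (log2 fold change 2.27 ± 0.28, adjusted p = 0.00497). The brighter probe set held in all 6 omissions and the other in 3. Aquaporins, which pass water, were singled out after their values were seen. AQP5, the aquaporin of gland and lung epithelia, read 600.2, 985 and 1613 at E14, against 147, 310.4 and 26.0 at E10 in its brightest probe set (log2 fold change 3.22 ± 0.76, adjusted p = 0.0575) and passed in 2 dimmer ones (adjusted p = 0.048 and 0.033). The first of these 2 calls was lost in 5 omissions (adjusted p up to 0.127) and with all 12 arrays, and the second in 3 (up to 0.108). AQP3 read 33.2, 359 and 89.0 at E14, against 471, 445 and 638 at E10 (log2 fold change -2.33 ± 0.68, adjusted p = 0.0963) and did not pass.

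The 174 tested solute carriers, membrane transporters of small molecules, had 3 that rose (1.72%) and 2 that fell (1.15%), near the 1.76% and 1.02% of all genes. SLC15A1, the oligopeptide transporter of the intestine, read 636, 1653 and 642 at E14, against 87.4, 11.7 and 102 at E10 (log2 fold change 4.22 ± 0.74, adjusted p = 0.0229), and was lost without E14 replicate 3 (adjusted p = 0.0628). SLC17A9, which loads nucleotides into vesicles (log2 fold change 1.75 ± 0.30, adjusted p = 0.0207), and SLC52A3, a riboflavin carrier (log2 fold change 1.28 ± 0.26, adjusted p = 0.0359), rose less. SLC25A30, a mitochondrial carrier (log2 fold change -1.75 ± 0.38, adjusted p = 0.0483), and SLC35B4, a nucleotide sugar carrier (log2 fold change -1.07 ± 0.22, adjusted p = 0.0403), fell. The calls of SLC17A9, SLC52A3, SLC25A30 and SLC35B4 were lost in 4 to 6 omissions, at adjusted p up to 0.167. SLC6A6, the taurine carrier, noticed after its values were seen, passed in both dimmer probe sets (log2 fold changes 2.52 and 1.15) but not in its brightest (0.04). These 2 calls were lost in 5 and in all 6 omissions (adjusted p up to 0.124 and 0.171), and both with all 12 arrays.

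Lipid handling genes went both ways, with 2 of 26 tested genes that rose and 2 that fell (7.69% each, beside 1.76% and 1.02% of all genes). GPIHBP1, which in mammals holds lipoprotein lipase on capillary walls, read 406, 1528 and 947 at E14, against 41.2, 34.1 and 141 at E10 (log2 fold change 3.84 ± 0.58, adjusted p = 0.0131). TM6SF1, a lysosomal membrane protein, averaged 276 ± 62.1 at E14 and 85.2 ± 8.69 at E10 (SD, n = 3 each; log2 fold change 1.68 ± 0.24, adjusted p = 0.00957). The fatty acid binding protein FABP5 averaged 307 ± 63.5 at E14 and 718 ± 201 at E10 (log2 fold change -1.21 ± 0.25, adjusted p = 0.0424), and the endothelial lipase LIPG 128 ± 11 at E14 and 283 ± 75.1 at E10 (log2 fold change -1.12 ± 0.24, adjusted p = 0.047). TM6SF1 held in all 6 omissions, GPIHBP1 was lost in 3 (adjusted p up to 0.0738), and FABP5 and LIPG in all 6 (up to 0.142 and 0.173).

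For metals, 2 of 22 tested genes rose (9.09%, beside 1.76% of all genes). ATP13A4, a P-type transport ATPase, read 138, 186 and 254 at E14, against 30.4, 22.0 and 26.8 at E10 (log2 fold change 2.83 ± 0.31, adjusted p = 0.00289), and held in all 6 omissions. HEPH, the ferroxidase hephaestin that passes iron to transferrin, rose (log2 fold change 1.34 ± 0.26, adjusted p = 0.0323), and its call held only without E14 replicate 2 (adjusted p up to 0.109). The number of transport genes that rose was 4 when E14 replicate 3 was omitted, 5 for E10 replicate 2 and 6 for E10 replicate 1. The number that fell was 0 without E14 replicate 3 or any E10 array and 1 without E14 replicate 1. Of the 10 that rose, 4 reached the signal limit at E14 only, as did 21 of the 291 tested.

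**Figure D3:**
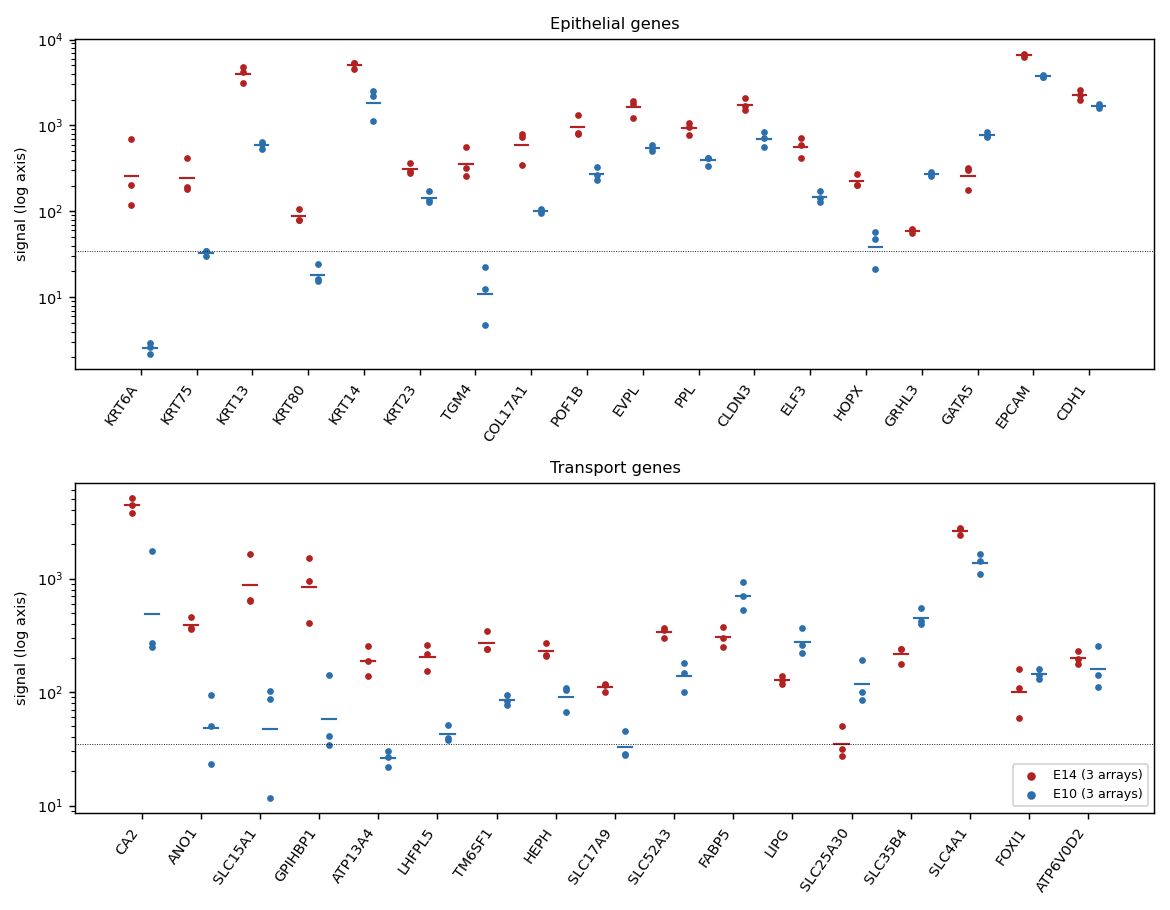
Signal (log axis) of 18 epithelial and 17 transport genes in each of the 3 E14 arrays (red, left of each pair) and 3 E10 arrays (blue), with bars at the geometric means and a dotted line at the signal limit of 35. GRHL3 and GATA5 are lower at E14 among epithelial genes that are mostly higher, and 1 E10 array of CA2 stands at 1750 above the other two.

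Genes of mitosis and DNA replication had small and mostly negative fold changes, and few of them passed. Of 77 tested genes of mitosis and the kinetochore, 75 had negative log2 fold changes, beside 4717 of all 9013 genes. Of the 77, 11 fell (14.3%, beside 1.02% of all genes) and 0 rose, at a median of -0.74. CCNA2, the cyclin of S phase and mitotic entry, read 317, 236 and 241 at E14, against 675, 705 and 602 at E10 (log2 fold change -1.33 ± 0.20, adjusted p = 0.0115). AURKB, a kinase of chromosome segregation, read 231, 244 and 235 at E14, against 647, 728 and 434 at E10 (log2 fold change -1.32 ± 0.23, adjusted p = 0.0205). KIF20A, a kinesin of cytokinesis, read 79.1, 76.8 and 103 at E14, against 293, 199 and 195 at E10 (log2 fold change -1.40 ± 0.25, adjusted p = 0.0242). In these 3 genes all E14 values lay below all E10 values, as in 2692 of all 17726 probe sets tested. A second, dimmer probe set of KIF20A, however, had a log2 fold change of 0.68 (adjusted p = 0.252).

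NUF2, a kinetochore protein that binds microtubules, read 68.1, 233 and 67.0 at E14, against 589, 378 and 464 at E10 (log2 fold change -2.20 ± 0.45, adjusted p = 0.0389), with E14 replicate 2 the highest of its stage, and a second probe set of it did not pass (-0.73, adjusted p = 0.215). CKAP2 (log2 fold change -1.33 ± 0.25, adjusted p = 0.0304) and CDCA3 (log2 fold change -1.18 ± 0.22, adjusted p = 0.0287), both proteins of the dividing cell, fell too. MAD2L1, of the spindle checkpoint, averaged 411 ± 72.2 at E14 and 867 ± 142 at E10 (SD, n = 3 each; log2 fold change -1.08 ± 0.21, adjusted p = 0.033), and the mitotic cyclin CCNB1, which RefSeq gives the synonym CCNB2, averaged 859 ± 266 at E14 and 1735 ± 185 at E10 (log2 fold change -1.06 ± 0.25, adjusted p = 0.0539) and did not pass. Each of the 11 mitotic calls was lost when E10 replicate 1 or E10 replicate 2 was omitted. Among common markers of cycling cells, taken up after their values were seen, the kinase CDK1 fell (log2 fold change -1.03, adjusted p = 0.0326), MKI67 averaged 524 ± 36.3 at E14 and 622 ± 104 at E10 and did not pass (log2 fold change -0.24, adjusted p = 0.494), and the topoisomerase TOP2A passed in its dimmer probe set only (-1.38, adjusted p = 0.00827, with -0.84 and adjusted p = 0.165 in the brighter).

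In the replication list 71 of 77 tested genes had negative log2 fold changes, beside 4717 of all 9013 genes. Of the 77, 4 fell (5.19%, beside 1.02% of all genes) and 0 rose, at a median of -0.58. MCM6, a subunit of the replicative helicase, read 161, 171 and 164 at E14, against 481, 425 and 392 at E10 (log2 fold change -1.38 ± 0.19, adjusted p = 0.00827). CDC45, which activates that helicase, read 136, 160.5 and 133 at E14, against 375, 380.2 and 332 at E10 (log2 fold change -1.34 ± 0.20, adjusted p = 0.0115). NASP, a histone chaperone, read 438, 388 and 446 at E14, against 999, 1064 and 921 at E10 (log2 fold change -1.23 ± 0.17, adjusted p = 0.00827). NEIL3, a DNA glycosylase, averaged 14.1 ± 6.26 at E14 and 79.3 ± 17.1 at E10 (log2 fold change -2.56 ± 0.45, adjusted p = 0.022). Without E10 replicate 1 or 2 none of the 4 passed, MCM6 having an adjusted p = 0.0557 and 0.0508. The mean signal of MCM6 was lower at each later stage, at 958 at E5, 592 at E7, 433 at E10 and 166 at E14, and so was that of CDC45, at 949.7 at E5, 558 at E7, 362 at E10 and 143 at E14.

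The regulators that set the pace of the cycle gave fewer calls. Of 46 tested, 2 rose (4.35%, beside 1.76% of all genes) and 0 fell, at a median of -0.24. At an unadjusted p under 0.05, 13 were lower and 7 higher, beside 3908 of all 17726 probe sets tested in either direction. CABLES1, a cyclin-dependent kinase binding protein that restrains growth (log2 fold change 1.15 ± 0.19, adjusted p = 0.0184), and PDCD4, an inhibitor of translation (log2 fold change 1.06 ± 0.18, adjusted p = 0.0182) were the 2 that rose, with other probe sets of both under the threshold of fold or p. CABLES1 held in 3 of the 6 omissions (adjusted p up to 0.0847) and PDCD4 in 2 (up to 0.0903). Of 52 tested genes of ribosome biogenesis and RNA processing, 46 had negative fold changes, beside 4717 of all 9013 genes. Of the 52, 2 fell (3.85%, beside 1.02% of all genes), the splicing proteins HNRNPH3 (log2 fold change -1.06 ± 0.16, adjusted p = 0.0128) and SNRPD3 (log2 fold change -1.0 ± 0.18, adjusted p = 0.024). HNRNPH3 held in 3 omissions (adjusted p up to 0.0716) and SNRPD3 in 1 (up to 0.105). The oncogene MYCN, an activator of ribosome production, averaged 262 ± 71.4 at E14 and 386 ± 47.3 at E10 in its brightest probe set (log2 fold change -0.58 ± 0.24, adjusted p = 0.192). The paper lists a fall of MYCN in another probe set.

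Over the 4 lists 17 of 252 tested genes fell (6.75%, beside 1.02% of all genes) and 2 rose, with 114 lower and 8 higher at an unadjusted p under 0.05. Their median log2 fold change was -0.56. The summed signal of the mitosis list was 14792 to 18064 at E14 and 26991 to 30398 at E10. The count of calls depended on single arrays, with 0 that fell once either of the first and second E10 arrays was omitted, 8 without the third and 6 without E14 replicate 3. It was 15 after quantile normalization, 59 with the medians over all probe sets equalized and 14 with those over tested probe sets equalized.

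**Figure D4:**
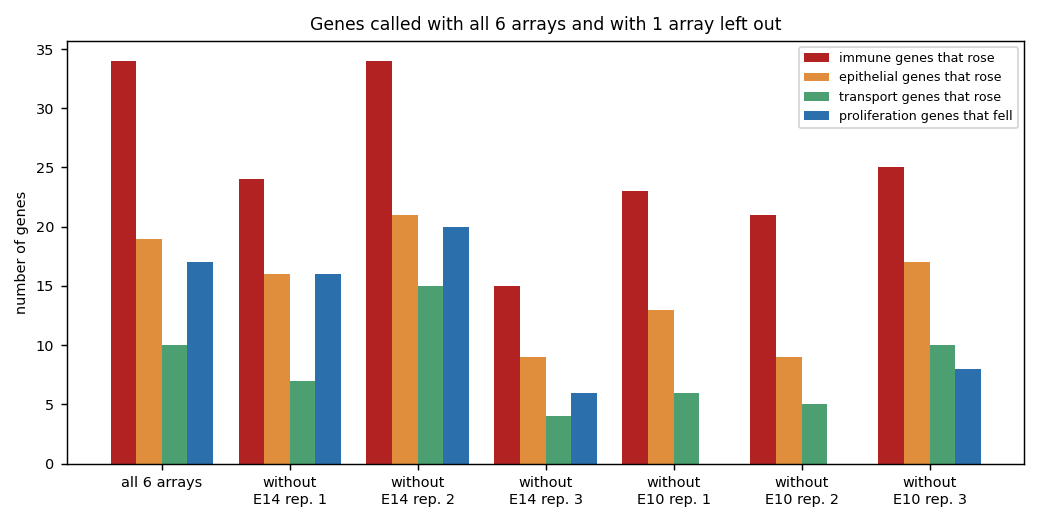
Number of genes called (vertical axis) with all 6 arrays and with 1 array left out in turn, for immune, epithelial and transport genes that rose and proliferation genes that fell. Immune calls number 34 with all arrays and 15 to 34 with 1 left out, and proliferation calls number 17 with all arrays and 0 without E10 replicate 1 or 2.

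Of 37 tested endothelial genes 3 rose (8.11%, beside 1.76% of all genes), 0 fell and the median log2 fold change was 0.10, with 3 lower at an unadjusted p under 0.05. The defining markers PECAM1 (0.38, adjusted p = 0.603), CDH5 (0.22, 0.597), KDR (-0.07, 0.935), TIE1 (0.49, 0.409) and VWF (0.38, 0.235) were not called. JAM2, a junctional adhesion molecule of endothelium, averaged 172 ± 32.8 at E14 and 67.0 ± 17.9 at E10 (SD, n = 3 each; log2 fold change 1.38 ± 0.29, adjusted p = 0.0411). PTRF, the caveolar coat protein cavin-1, read 836, 977 and 878 at E14, against 494, 320.3 and 476 at E10 (log2 fold change 1.08 ± 0.21, adjusted p = 0.033), and ETS1, a transcription factor of endothelium and lymphocytes, averaged 492 ± 35.4 at E14 and 239 ± 28.7 at E10 (log2 fold change 1.05 ± 0.19, adjusted p = 0.0251). The 3 other probe sets of ETS1 were not called. All 3 genes were lost when E14 replicate 3 or E10 replicate 1 or 2 was omitted, at adjusted p up to 0.111.

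VEGFD, a ligand of the lymphatic receptor FLT4, read 437, 766 and 465 at E14, against 107, 51.3 and 66.6 at E10 (log2 fold change 2.91 ± 0.32, adjusted p = 0.00345), held in all 6 omissions, and had been 69.8 to 105 at E5 and 267 to 394 at E7. CCBE1, which helps to activate such ligands, fell (log2 fold change -1.81 ± 0.35, adjusted p = 0.031) and was lost in 4 omissions. The lymphatic markers PROX1 (-0.16, adjusted p = 0.838), LYVE1 (0.32, 0.599) and FLT4 (-0.80, 0.121) were not called. Of 18 tested mural genes 2 rose (11.1%, beside 1.76% of all genes), the G protein regulators RGS5 (log2 fold change 1.67 ± 0.30, adjusted p = 0.024), a pericyte marker, and RGS4 (log2 fold change 1.48 ± 0.29, adjusted p = 0.033), each lost in 4 omissions (adjusted p up to 0.108). MYH11, PDGFRB and DES were not called, with log2 fold changes of 0.44, 0.18 and 0.64, and ACTA2, smooth muscle actin, was below the limit.

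Adhesion and matrix genes held several that fell. Of the 24 adhesion, vessel and cell cycle genes that the study names for this interval, a list chosen on these samples and so not independent evidence of direction, 8 fell and 4 rose in their brightest probe set. PARVB, an adaptor of integrin adhesions, read 59.9, 98.6 and 58.5 at E14, against 281, 549 and 405 at E10 (log2 fold change -2.50 ± 0.31, adjusted p = 0.00504), and MYO10, a filopodial myosin, read 197, 259.5 and 245 at E14, against 686, 566 and 670.4 at E10 (log2 fold change -1.46 ± 0.20, adjusted p = 0.00783). Both held in all 6 omissions. LAMA1, a laminin chain of early basement membranes, read 66.4, 80.5 and 88.4 at E14, against 213, 218 and 280.2 at E10 (log2 fold change -1.60 ± 0.23, adjusted p = 0.0114), and the heparin-binding growth factor MDK read 818, 423 and 698 at E14, against 1882, 2428 and 1730.5 at E10 (log2 fold change -1.68 ± 0.26, adjusted p = 0.0132). LAMA1 was lost without E10 replicate 2 (adjusted p = 0.056) and MDK without E10 replicate 1 or 2 (adjusted p up to 0.0748). The laminin receptor DAG1 (log2 fold change -1.11 ± 0.20, adjusted p = 0.0258) and the mesenchymal factor TWIST1 (log2 fold change -1.19 ± 0.21, adjusted p = 0.024) fell as well, both lost in 4 omissions (adjusted p up to 0.121).

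MYO10, LAMA1 and DAG1 stood highest at E10. MYO10 averaged 122 at E5, 193 at E7, 641 at E10 and 234 at E14, LAMA1 averaged 85.2 at E5, 121 at E7, 237 at E10 and 78.4 at E14 and DAG1 averaged 129 at E5, 172 at E7, 948 at E10 and 445 at E14. Some were called in 1 probe set only. EPAS1, a hypoxia-inducible factor of endothelium, had -0.13 (adjusted p = 0.687) in its brightest probe set and -1.43 (adjusted p = 0.0132) in the other. By quantitative PCR on pooled CAMs the paper reports EPAS1, and CYR61 below, as lower at E14 than at E10. FBLN1, a matrix fibulin, had -0.39 (adjusted p = 0.217) and -1.0 (adjusted p = 0.0359). AMOT, angiomotin, had 0.81 (adjusted p = 0.0935) and, in 1 of its 3 other probe sets, 1.14 (adjusted p = 0.035).

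In their brightest probe sets, also not called were the ephrin receptor EPHA3 (-1.71, adjusted p = 0.0861), the guidance factor SEMA3C (-1.06, 0.0752), the integrin adaptors PARVA (-1.37, 0.0816) and LIMS1 (-0.24, 0.417), the matricellular CYR61 (-1.08, 0.0528) and the repressor SNAI2 (-1.11, 0.0629). In these 6 genes all 3 E14 values lay below all 3 E10 values, as they did in 2692 of all 17726 probe sets tested. By its own test, the paper lists falls of PARVA, CYR61 and SNAI2 in the same probe sets as read here. It lists the falls of EPHA3 and LIMS1 in other probe sets, and that of SEMA3C in the one read here and a further one. COL4A2, a collagen of basement membranes, gave unlike answers. One probe set read 322, 640.3 and 423 at E14, against 1.71, 6.45 and 7.35 at E10 (log2 fold change 6.68 ± 0.56, adjusted p = 0.00085; 4.47 under the floor of 20), whereas its brightest read 3640.4, 2483 and 3954 at E14, against 2536, 2094 and 2805 at E10 (log2 fold change 0.42 ± 0.21, adjusted p = 0.261) and the 4 others tested were not called either. The same probe set had read 320.0 to 597 at E7, above its E10 values.

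Of connective tissue genes, 0 of 45 tested mesenchyme and matrix genes rose and 3 fell (6.67%, beside 1.02% of all genes), with a median log2 fold change of -0.08, and COL1A1 and COL3A1 at 0.33 and 0.45, neither called. FIBIN, a secreted protein, was the clearest of the 3, at 207, 171 and 148 at E14, against 1764, 2558 and 1024 at E10 (log2 fold change -3.26 ± 0.31, adjusted p = 0.00143). In the basement membrane list LAMA2, the laminin chain of mature muscle and nerve, read 292, 291 and 111 at E14, against 17.9, 18.8 and 61.0 at E10 (log2 fold change 2.95 ± 0.54, adjusted p = 0.0253), and was lost without E14 replicate 1 or E10 replicate 1 or 2 (adjusted p up to 0.11).

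Among the globins of red cells 1 passed. The embryonic β-type globin HBE read 2611, 1729 and 1372 at E14, against 3554, 4179 and 4566 at E10 (log2 fold change -1.15 ± 0.23, adjusted p = 0.0377), lost in 4 omissions. HBZ, the embryonic α-type globin, read 778, 471 and 114 at E14, against 1482, 1744 and 2758 at E10 (log2 fold change -2.47 ± 0.59, adjusted p = 0.0593), and did not pass, nor did the embryonic HBBR (-1.35, adjusted p = 0.0635) or the adult α globins HBA1 (0.55, adjusted p = 0.0789) and HBAD (0.60, adjusted p = 0.0687). The 23 tested erythroid genes had a median of 0.40, and their summed signal was 33826 to 46714 at E14 and 29176 to 34959 at E10. CA2 belongs to this list too, and red cells and acid-secreting cells as its source cannot be told apart. The thrombocyte tubulin TUBB1 averaged 952 ± 65.3 at E14 and 682 ± 123 at E10 (SD, n = 3 each; adjusted p = 0.168).

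The largest rises and falls below were ranked among called probe sets with 1 symbol whose E14 and E10 arrays did not overlap. Outside the lists, the largest rise was that of LOC770450, a gene with no name in the annotation, at 4234, 6229.7 and 3285 at E14, against 16.5, 16.5 and 29.6 at E10 (log2 fold change 7.79 ± 0.31, adjusted p = 4.99e-06). It held in all 6 omissions and was 6.26 to 22.2 at E5 and 9.54 to 23.2 at E7. SOHO1, a homeobox gene known from sensory organs, read 222, 574 and 108 at E14, against 2.92, 8.12 and 2.59 at E10 (log2 fold change 5.92 ± 0.68, adjusted p = 0.00384; 3.58 under the floor of 20). CTSG, a protease of granulocyte granules in mammals, read 756, 337 and 262 at E14, against 28.3, 3.61 and 37.0 at E10 (log2 fold change 4.70 ± 0.79, adjusted p = 0.0182). JAC1 (log2 fold change 5.34 ± 0.98, adjusted p = 0.0257) and LOC424473, in 1 of 2 probe sets (log2 fold change 4.67 ± 0.94, adjusted p = 0.0374), were also among the 15 largest rises, both mostly near background at E10. Under the floor of 20 their log2 fold changes were 3.03 and 1.84, and JAC1 was no longer called (adjusted p = 0.0563). The calls of CTSG, JAC1 and LOC424473 were lost in 2 to 5 omissions (adjusted p up to 0.119).

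Some of the largest falls were of genes that had been high at E10 or before. Others were dim at E10, such as BRINP3 and TMEM132C below, with E10 means of 64.4 and 68.5. A2M, a secreted protease inhibitor of plasma, read 78.4, 54.6 and 50.3 at E14, against 1168, 1144 and 1647 at E10 (log2 fold change -4.44 ± 0.25, adjusted p = 5.67e-05). CA3B, by its symbol a carbonic anhydrase, read 18.9, 32.7 and 37.7 at E14, against 294, 151 and 298 at E10 (log2 fold change -3.05 ± 0.37, adjusted p = 0.00494), so that CA2 and CA3B moved in opposite directions. ASTL, an astacin-type metalloprotease, read 21.7, 3.48 and 3.66 at E14, against 216, 473 and 95.8 at E10 (log2 fold change -5.04 ± 0.78, adjusted p = 0.0136), and its mean was 1297 at E5, 1158 at E7, 261 at E10 and 9.61 at E14. A2M, CA3B and FIBIN held in all 6 omissions, and ASTL was lost without E14 replicate 3 or E10 replicate 1 or 2 (adjusted p up to 0.0906).

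LOC420770 read 37.3, 139 and 51.9 at E14, against 3606, 5113 and 399 at E10 (log2 fold change -4.91 ± 0.85, adjusted p = 0.0213) and GATD3AL2 42.1, 202 and 81.4 at E14, against 1347, 2576 and 568 at E10 (log2 fold change -3.83 ± 0.62, adjusted p = 0.0154). In both, E10 replicate 3 was the lowest of its stage, and E7 values were 7537 to 9629.5 and 1668 to 3482. ABI3BP, a matrix protein, read 0.509, 1.23 and 2.25 at E14, against 106, 232 and 45.6 at E10 (log2 fold change -6.53 ± 0.99, adjusted p = 0.013; -2.38 under the floor of 20). The neuronal genes STMN2, a regulator of microtubules (log2 fold change -2.56 ± 0.41, adjusted p = 0.0148), and BRINP3 (log2 fold change -3.79 ± 0.61, adjusted p = 0.0158) fell, as did TMEM132C (log2 fold change -4.46 ± 0.93, adjusted p = 0.0419), the small GTPase ARF5 (log2 fold change -2.91 ± 0.49, adjusted p = 0.0182) and the heme carrier HPX of plasma (log2 fold change -2.18 ± 0.48, adjusted p = 0.0496). Each of these last 8 genes lost its call in 2 to 5 omissions. Under the floor of 20 the log2 fold changes of BRINP3 and TMEM132C were -1.64 and -1.77, and HPX was no longer called (adjusted p = 0.0534).

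WNT11 completes the 15 largest falls, ranked among probe sets with 1 symbol whose groups did not overlap. For 4 of the 15 the probe set that fell was dim and the brighter ones did not pass. These were the splicing factor SF3B3 (-3.29 in the dim and -0.43 in the brightest), the importin IPO8 (-3.06, with 0.63 in the brightest), the catenin ARVCF (-2.99 and -0.34) and the nucleotidase NT5C3B (-3.45 and -0.35). Whether these genes fell as a whole was not shown.

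The called probe sets were also set against the 2 earlier stages, as a description only, since they had been chosen for their level at E14 and 84 of the 241 higher ones had not reached the signal limit at any other stage. All 3 E14 arrays lay above all 6 arrays of E5 and E7 in 212 of the 241 higher probe sets (88.0%), beside 15.8% of all tested. They lay below all 6 in 109 of the 169 lower ones (64.5%), beside 12.9% of all tested. Neither share over all tested was limited to probe sets that differed between E14 and E10.

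**Figure D5:**
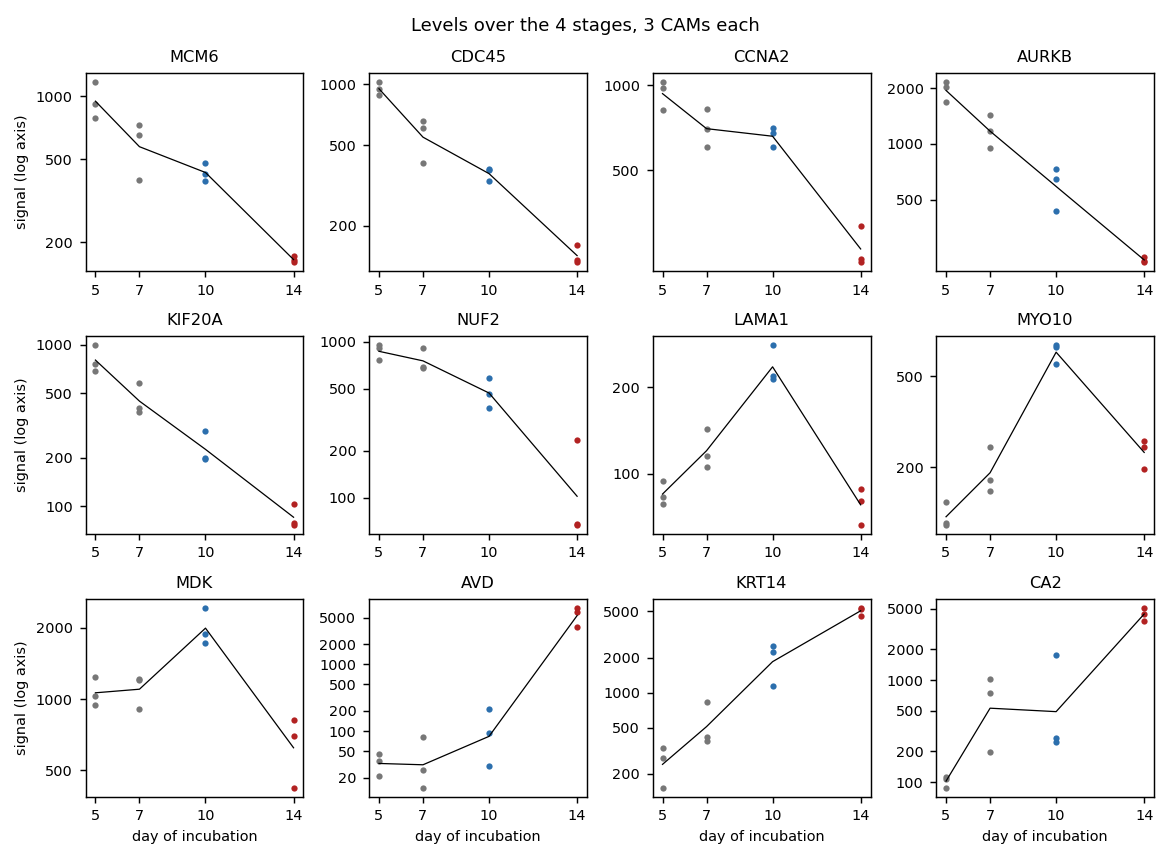
Signal (log axis) of 12 genes against day of incubation, 1 point per CAM, 3 CAMs per stage, with E14 red, E10 blue, E5 and E7 grey, and a line through the geometric means. MCM6, CDC45, AURKB and KIF20A decline at each step, LAMA1, MYO10 and MDK are highest at E10, and AVD is high at E14 only.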

How the data were processed

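RNA of 12 whole CAMs, 3 embryos each at E5, E7, E10 and E14, was hybridized to 1 Affymetrix chicken genome array each. Per the labels and the study's methods, the authors extracted total RNA from snap-frozen membranes with a column kit, and deposited linear signal intensity values per probe set, computed with GCOS 1.2 and scaled to a target of 100 on each array. Detection calls were not used here, and the number of arrays, not a read depth, limits the precision. The authors' own test was significance analysis of microarrays, which was not run here.

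The intensity values were taken to log2 and the 6 arrays of E14 and E10 were fitted in limma 3.58.1 (R 4.3.3) with 1 mean per stage, eBayes with an intensity trend and Benjamini-Hochberg adjustment over 17726 probe sets. Those were the probe sets with all signals of some stage at 35 or more. Calls needed a fold over 2 and an adjusted p below 0.05. Nothing in the sources says that the labels' replicate numbers pair CAMs across stages, and p-values measure the spread between single embryos. Probe sets were named by GEO's platform annotation. Where the gene identifier matched RefSeq's gene table, RefSeq's symbol was to replace the annotation's unless it was a LOC number, and 0 symbols changed. Of the 410 called, 347 had 1 symbol, 5 several and 58 none. Lists were matched by symbol or by a RefSeq synonym, and a gene was read by its brightest probe set.

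The lists and the genes were chosen with earlier results of these data known. The genes named were the 15 largest rises and falls with a symbol, up to 6 called genes of each list with the largest changes, the genes the study names for this interval and fixed cell markers. Others are said to be named after their values were seen. In simulated data with these means and spreads, 46 of 100 genes changed 3-fold and 78 of 100 changed 6-fold were called, with 7 false calls. Alternatives changed the filter, offset, floor, scaling, arrays, trend and covariates. Tables and plots were made in Python 3.11.15 with pandas 2.3.3 and matplotlib 3.10.9.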

Additional observations from a re-analysis of the deposited data

How the results depend on the processing

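No called gene that is named changed sign under any alternative tried. The number of probe sets higher at E14 was 155 with HINTW as a covariate, 140 without the intensity trend and 83 to 303 with 1 array left out. The number lower was 395 with 11 arrays (no E7 replicate 3), 263 with 12 arrays, 88 without the trend, 623 with medians equalized and 25 to 335 with 1 array left out. Immune genes that rose numbered 19 without the trend and 15 to 34 with 1 array left out, and epithelial genes that rose 12 and 9 to 21. Transport genes that rose numbered 16 with 11 arrays and 4 to 15 with 1 array left out. Transport genes that fell numbered 9 with 11 arrays, 0 without the trend, 10 with medians equalized, 1 with the tested medians equalized (chosen after seeing the data), 2 with no filter and 0 to 4 with 1 array left out. Proliferation genes that fell numbered 41 with 11 arrays, 29 with 12 arrays, 6 without the trend, 59 with medians equalized, 27 with a limit of 100 and 0 to 20 with 1 array left out. The cause of these shifts was not tested.

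With the replicate number as a block 157 probe sets were higher and 96 lower, 10 proliferation genes and 1 transport gene fell, and 232 of the 253 calls were among the 410. The correlations of same-numbered deviations were 0.06, 0.04 and -0.08, beside -0.15 to 0.11 for differently numbered ones. With 3 arrays per stage this cannot settle whether the numbers pair the CAMs. Of the 124 called probe sets named, 36 kept their call in all 6 omissions, while omitting E14 replicate 3 cost 70 calls and omitting E10 replicates 1 and 2 in turn cost 71 and 78. Signals under 20 on some of the 6 arrays stood behind 26.6% of the higher and 14.8% of the lower probe sets, beside 11.1% of all tested, and fold changes there depend on values near background.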

Other observations

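Genes outside the immune, epithelial, transport and proliferation lists gave 3 further groups with calls. Of 16 tested glucocorticoid-responsive genes, which adrenal steroids induce in many tissues, 5 rose and 0 fell (31.2%, beside 1.76% of all genes), with a median log2 fold change of 0.90. FKBP5, a chaperone partner of the glucocorticoid receptor, read 307, 680.5 and 527 at E14, against 75.9, 106 and 89.1 at E10 (log2 fold change 2.42 ± 0.30, adjusted p = 0.00509). All E14 values of FKBP5 lay above all E10 values, as in 2476 of all 17726 probe sets tested. Its call held in each of the 6 omissions of 1 array, although 2 dimmer probe sets of FKBP5 did not pass (adjusted p = 0.0728 and 0.0539). CRISPLD2, a secreted protein, read 213, 253 and 120.2 at E14, against 32.5, 29.2 and 54.0 at E10 (log2 fold change 2.32 ± 0.36, adjusted p = 0.0132), and was lost without E10 replicate 1 or 2 (adjusted p up to 0.0738). ARRDC2, an arrestin-domain protein (log2 fold change 1.49 ± 0.30, adjusted p = 0.0397), and TSC22D4, which RefSeq gives the synonym TSC22D3 (log2 fold change 1.18 ± 0.24, adjusted p = 0.041), rose too, and were lost in 3 and 5 omissions. The fifth was ANXA1.

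Of 25 tested enzymes of xenobiotic and steroid metabolism 3 rose and 0 fell, beside 1.76% and 1.02% of all genes. At an unadjusted p under 0.05, 7 were higher and 2 lower. Of all 17726 probe sets tested, 3908 had such a p in either direction. CYP3A5, a cytochrome of drug and steroid oxidation, read 243, 159 and 182 at E14, against 47.5, 48.1 and 28.2 at E10 (log2 fold change 2.26 ± 0.30, adjusted p = 0.00783), and GPX3, the secreted glutathione peroxidase, read 2171, 2456 and 1988 at E14, against 914, 909 and 911 at E10 (log2 fold change 1.27 ± 0.16, adjusted p = 0.00494). Both held in all 6 omissions. CYP1A1, the cytochrome induced through the aryl hydrocarbon receptor, rose (log2 fold change 1.82 ± 0.33, adjusted p = 0.024), and was lost in 4 omissions (adjusted p up to 0.0769).

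Of 47 tested patterning and signalling genes 0 rose and 3 fell (6.38%, beside 1.02% of all genes), with 7 higher and 12 lower at an unadjusted p under 0.05. WNT11, a Wnt ligand, read 16, 6.39 and 22.8 at E14, against 158, 254 and 42.8 at E10 (log2 fold change -3.17 ± 0.69, adjusted p = 0.048). Under a floor of 20 on the signals its log2 fold change was -2.52 and it was no longer called (adjusted p = 0.0534). WIF1, a secreted Wnt inhibitor, fell (log2 fold change -2.86 ± 0.59, adjusted p = 0.0411), as did DISP1, which releases hedgehog ligands from cells (log2 fold change -1.43 ± 0.23, adjusted p = 0.0142). WNT11 and WIF1 were lost in 5 omissions each and DISP1 without E10 replicate 1 or 2 (adjusted p up to 0.0819).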
